A study of Mus musculus with 9 samples.

Results

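The comparison described here set 3 exon arrays of C2C12 cells given an siRNA against Mbnl1 beside 3 arrays of the same cells given a control siRNA. C2C12 is an established mouse myoblast line, that is, a line of muscle precursor cells that grow in culture. The 6 arrays are those whose titles name Mbnl1 siRNA or control siRNA, of 9 arrays in the study. The other 3 carry RNA of C2C12 cells given an siRNA against Cugbp1 (now Celf1) and were left out of the contrast. They entered the step that summarised probe sets into gene values, which ran over all 9 arrays together. They also entered a second comparison, Mbnl1 siRNA against Cugbp1 siRNA, which shares the Mbnl1 siRNA arrays with the first. In all groups total RNA was taken 48 h after transfection, and 100 ng of it was labelled per array. The labels do not name the sequence of any siRNA or say whether replicates came from separate cultures. The p-values therefore measure no more than how these arrays vary within a group, a variation that may be technical.

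MBNL1 is an RNA-binding protein that, depending on where it binds in a pre-mRNA, promotes the inclusion or the skipping of alternative exons. It also binds mature mRNAs and affects how long they last and where in the cell they are found. In myotonic dystrophy it is trapped by expanded CUG repeats, and exons of muscle genes return to a fetal pattern.

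Each array measured 1195555 probe sets, of which 316997 carried exactly 1 gene symbol. Of these, 168305 passed a filter on weak signals (a mean log2 intensity over the 6 arrays of at least 7.0, the 75th percentile of all probe sets). They gave 12700 genes with at least 3 probe sets each. The median intensity of all probe sets was 43.6 to 43.8 on the control arrays and 42.3 to 42.9 on the 6 arrays of the siRNAs against Mbnl1 and Cugbp1. The control arrays thus lay apart from both other groups. Whether a change that the Cugbp1 siRNA arrays share belongs to an siRNA's target or to the control arrays cannot be told apart in this design. Of 11 myoblast markers 9 were tested, among them Des, Chrna1, Cdh15 and Myod1, which stood at mean log2 intensities of 11.88, 12.28, 9.92 and 9.61 on the control arrays. Their summed intensity was 14381 to 14641 on the control arrays and 14154 to 15527 after Mbnl1 siRNA.

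Mbnl1, the targeted gene, was lower on every Mbnl1 siRNA array. The 3 arrays read 10.05, 10.10 and 10.18 (log2 intensity), against 11.47, 11.46 and 11.44 on the control arrays. The groups did not overlap. The change was -1.35 (SE 0.04; limma with Benjamini-Hochberg, adjusted p = 3.10e-05), so that 39.3% of the Mbnl1 signal remained (95% interval 36.6% to 42.2%). Mbnl1 read 11.43, 11.51 and 11.56 after Cugbp1 siRNA, and it was 1.39 lower after Mbnl1 siRNA than there (adjusted p = 3.21e-07). Celf1 was not called after Mbnl1 siRNA (-0.07, SE 0.04, adjusted p = 0.188).

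The probe sets of Mbnl1 did not all fall alike. Of the 23 Mbnl1 probe sets that passed the filter, 20 fell below their control mean, and 15 did so by at least 2-fold. The 3 others were higher: their control means were 6.84, 7.07 and 8.73, and their means after Mbnl1 siRNA 7.39, 7.54 and 9.20. The third of these read 8.65, 8.72 and 8.84 on the control arrays and 9.12, 9.21 and 9.26 on the Mbnl1 siRNA arrays, without overlap, while in the other two the groups overlapped. Another, bright probe set fell only from 11.72 to 11.35. Relative to the gene's own value these 4 probe sets rose by 1.89, 1.82, 1.81 and 0.97 (limma with a mean-variance trend, adjusted p from 0.00158 to 0.00403). Further probe sets were called relatively higher although they fell, from 8.36 to 7.95 (0.93) and from 9.45 to 8.84 (0.74). Those called relatively lower fell from 11.94 to 9.86, from 11.90 to 9.81 and from 11.87 to 10.11 (-0.74, -0.74 and -0.41). The files do not say which exon a probe set covers, so the place of these probe sets in the transcript is not given here.

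**Figure D1:**
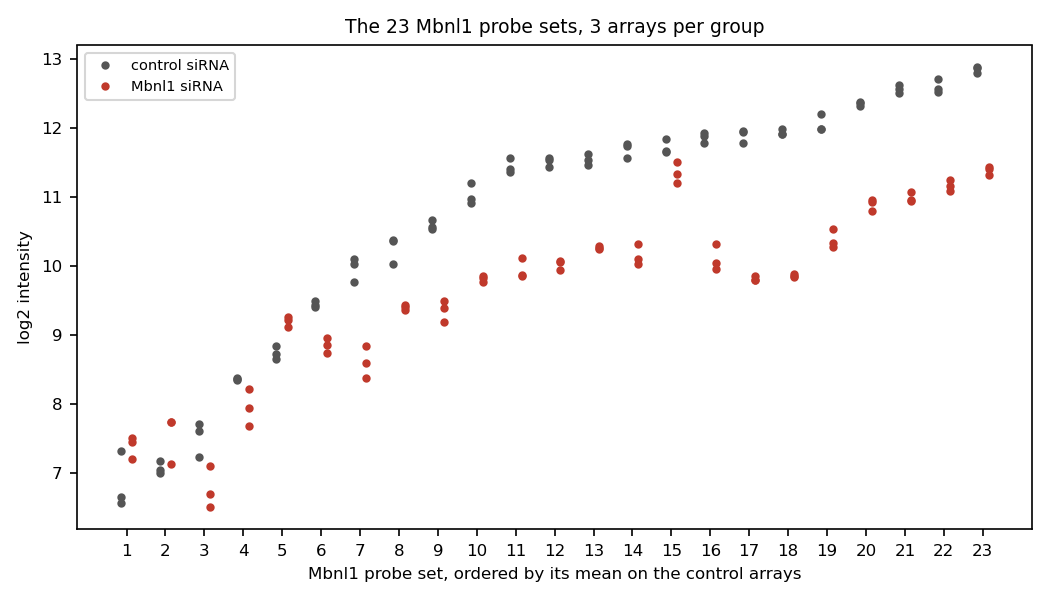
Log2 intensity of the 23 Mbnl1 probe sets on the 3 control siRNA arrays (grey) and the 3 Mbnl1 siRNA arrays (red), 1 point per array, ordered by the mean on the control arrays. Most red points lie more than 1 log2 unit below the grey ones, while in probe sets 1, 2 and 5 their mean is higher (with overlapping arrays in 1 and 2) and probe set 15 fell little, from 11.72 to 11.35.

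Many genes changed by little. Of 12700 genes, 5618 (44.2%) were called at an adjusted p under 0.05 (limma with Benjamini-Hochberg). In 28.4% of genes (3610) the level rose and in 15.8% (2008) it fell. Called changes had a median size of 0.26 on the log2 scale, and the median change of all genes was 0.04. Changes of at least 1.5-fold numbered 200 (1.57% of genes), 165 higher and 35 lower. At least 2-fold, 19 were higher and 1, Mbnl1, was lower. The 35 lower genes had a median of 3 probe sets, against 10 for all genes. In a fit of the 10375 genes with at least 5 probe sets, called changes of at least 1.5-fold were 144 higher and 10 lower. The 3 Mbnl1 siRNA arrays were all above or all below the 3 control arrays in 57.3% of genes (4640 above and 2642 below).

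How the arrays were scaled moved the share of rises among the calls. Rises made up 64.3% of calls as deposited, 54.3% with quantile normalisation repeated and 74.2% where arrays were centred on their medians. With the same 2 steps run on the kept probe sets only, added once values had been seen, rises were 34.4% (2000 against 3822 falls) and 27.8% (1707 against 4437). The median change of all genes ran from -0.07 to 0.07 over the 5 scalings. Of changes of at least 1.5-fold, 76 were rises and 168 falls with quantile normalisation of the kept probe sets, and 74 and 144 with centring on them. Counts of gene groups are therefore given below with their range over the 5 scalings. Counts as deposited are to be read against the shares of all genes as deposited, 28.4% higher and 15.8% lower. Over the 5 scalings, 1707 to 4473 of all 12700 genes rose and 1554 to 4437 fell. The range of a group is to be read against these.

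The calls were spread over all levels of signal, with more falls among dim genes. Genes were divided into 4 groups of 3175 by control level. In the dimmest group (log2 intensity up to 7.93), 24.7% rose and 22.1% fell. In the brightest (from 9.4), 25.2% rose and 9.32% fell. The group from 8.52 to 9.4 had the largest share of rises of the 4, 34.6%. The control arrays enter both the level and the change in these shares.

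**Figure D2:**
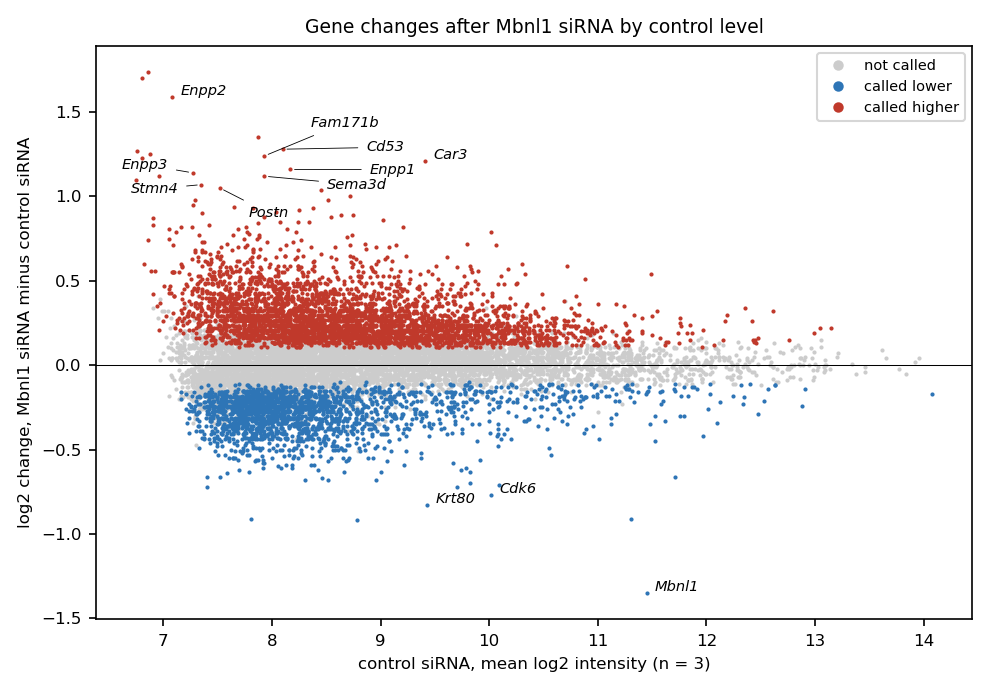
Log2 change after Mbnl1 siRNA of each of 12700 genes (vertical axis) against its mean log2 intensity on the control arrays (horizontal axis). Red and blue points are called higher (3610) and lower (2008) and grey points are not called, and Mbnl1 at -1.35 lies apart from all other genes at its level.

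The 14 largest rises among genes with at least 5 probe sets, and with both groups at or above the filter's threshold, ran from 1.59 (Enpp2) to 0.95 (Pla2g7). Enpp2 encodes autotaxin, which makes the signalling lipid lysophosphatidic acid outside the cell. It read 7.17, 6.96 and 7.11 on the control arrays and 8.86, 8.59 and 8.57 on the Mbnl1 siRNA arrays, a 3.02-fold rise (log2 change 1.59, SE 0.09, adjusted p = 8.90e-05). All 17 of its probe sets were higher, 16 of them at least 2-fold. The filter on weak signals averaged control and Mbnl1 siRNA arrays together. Near its threshold it therefore keeps probe sets that are bright in only 1 of the groups, whether they rose or fell. This limits such counts for Enpp2 and for other dim genes below, rises and falls alike. The control mean of Enpp2 was 7.08, near the threshold of 7.0, and without the filter Enpp2 rose by 1.69. Its Cugbp1 siRNA arrays, at 7.81, 8.01 and 7.95, lay between the other groups, and the Mbnl1 siRNA arrays were 0.75 above them (adjusted p = 7.01e-04).

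A pair of relatives of Enpp2 rose too. Enpp1 makes extracellular pyrophosphate, which restrains mineralisation, and Enpp3 splits extracellular nucleotides. Enpp1 read 8.12, 8.27 and 8.10 in control cells and 9.33, 9.35 and 9.30 after Mbnl1 siRNA, with all 26 probe sets higher (log2 change 1.16, SE 0.05, adjusted p = 4.97e-05). Enpp3 read 7.24, 7.38 and 7.17 against 8.32, 8.46 and 8.43, with 15 of 17 probe sets higher (1.14, SE 0.06, adjusted p = 8.90e-05). The control mean of Enpp3, 7.27, also lay near the filter's threshold, and without the filter it rose by 0.97. In neither gene did the groups overlap. The Cugbp1 siRNA arrays stood at 8.80 to 8.83 for Enpp1 and at 7.85 for Enpp3, again between the others, and the Mbnl1 siRNA arrays exceeded them by 0.50 and 0.55 (adjusted p = 3.26e-04 and 4.55e-04). In the RefSeq annotation Enpp1 and Enpp3 lie side by side on chromosome 10 with 0 genes between them.

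The 250 bases before the start of these neighbours are shown because they rose together, and those of Sema3d and Cdk6 because these stand for a rise and a fall described next. They come from RefSeq (GRCm38.p6), run 5′ to 3′ along the gene and were chosen after the values were seen. Capitals mark TATAAA or CCAAT on either strand, which do not overlap each other.
Enpp1 (chr10:24712160-24712409, minus strand): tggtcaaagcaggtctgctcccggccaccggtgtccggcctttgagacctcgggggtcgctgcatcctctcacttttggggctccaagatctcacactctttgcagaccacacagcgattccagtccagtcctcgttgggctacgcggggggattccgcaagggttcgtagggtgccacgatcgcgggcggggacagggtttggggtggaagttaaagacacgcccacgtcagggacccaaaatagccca
Enpp3 (chr10:24836196-24836445, minus strand): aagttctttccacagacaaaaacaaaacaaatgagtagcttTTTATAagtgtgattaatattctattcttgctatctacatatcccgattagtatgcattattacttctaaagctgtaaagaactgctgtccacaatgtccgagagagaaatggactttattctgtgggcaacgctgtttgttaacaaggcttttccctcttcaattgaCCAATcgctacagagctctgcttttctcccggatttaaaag
Sema3d (chr5:12382916-12383165, plus strand): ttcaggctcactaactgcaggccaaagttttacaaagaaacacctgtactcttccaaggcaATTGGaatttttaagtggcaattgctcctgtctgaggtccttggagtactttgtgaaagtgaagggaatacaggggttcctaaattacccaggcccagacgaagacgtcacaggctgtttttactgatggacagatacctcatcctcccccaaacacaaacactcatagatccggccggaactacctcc
Cdk6 (chr5:3343643-3343892, plus strand): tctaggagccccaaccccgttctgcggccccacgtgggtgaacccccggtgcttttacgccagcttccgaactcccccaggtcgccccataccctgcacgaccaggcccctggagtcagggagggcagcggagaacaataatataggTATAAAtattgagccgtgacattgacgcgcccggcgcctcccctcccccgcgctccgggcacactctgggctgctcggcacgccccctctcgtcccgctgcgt
The Enpp1 window held neither motif, 61.2% G and C, and 17 CpG sites. The Enpp3 window held TATAAA on the reverse strand at base 42 and CCAAT at base 210, with 36.8% G and C and 5 CpG sites. Sema3d had CCAAT on the reverse strand at base 62, and Cdk6 had TATAAA at base 148. These matches describe the letters only. Among the 32851 promoter windows of 300 bases in the table (250 before and 50 after the start), 13.6% held TATAAA and 37.4% CCAAT.

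Sema3d, a secreted guidance protein of the semaphorin family, read 7.96, 7.94 and 7.90 in control cells and 9.08, 9.08 and 8.98 after Mbnl1 siRNA. All 17 probe sets were higher and the change was 1.12 (SE 0.04, adjusted p = 4.06e-05). On the Cugbp1 siRNA arrays it stood at 8.09, 8.24 and 8.29, and the difference between the siRNAs was 0.84 (adjusted p = 3.07e-05). Car3, a carbonic anhydrase of slow muscle fibres and fat, went from 9.47, 9.34 and 9.44 to 10.78, 10.48 and 10.62 (1.21, SE 0.08, adjusted p = 1.39e-04). On the Cugbp1 siRNA arrays Car3 read 9.58, 9.58 and 9.52, which left a difference of 1.07 between the siRNAs (adjusted p = 3.07e-05). Stmn4, a regulator of microtubules, rose by 1.07, but only 3 of its 5 probe sets were higher and the other 2 were lower. Postn, a matrix protein, read 7.47, 7.52 and 7.56 against 8.58, 8.52 and 8.60 (1.05, SE 0.04, adjusted p = 4.06e-05), and was 0.83 above the Cugbp1 siRNA arrays (adjusted p = 5.93e-04).

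The other rises are given more briefly. Cd53, a tetraspanin known from blood cells, rose by 1.28 with all 6 probe sets higher, and exceeded the Cugbp1 siRNA arrays by 0.58 (adjusted p = 0.00429). Fam171b rose by 1.24 (0.74 above Cugbp1 siRNA), and Emb, a partner protein of monocarboxylate transporters, by 1.00 (0.63 above). Pdcd4, an inhibitor of the translation factor eIF4A, and Dync2li1, a subunit of the dynein of cilia, both rose by 0.98, and were 0.45 and 0.44 above Cugbp1 siRNA. Acp1, a low-molecular-weight phosphatase, read 9.49, 9.48 and 9.48 after Mbnl1 siRNA and 9.44, 9.44 and 9.43 after Cugbp1 siRNA, against 8.42, 8.45 and 8.47 in control cells. Its difference between the siRNAs was 0.05 (SE 0.04) and was not called (adjusted p = 0.490). Pla2g7, which breaks down platelet-activating factor, rose by 0.95, and its 0.29 above Cugbp1 siRNA missed the threshold (adjusted p = 0.0560).

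Falls were smaller than rises, Mbnl1 apart. The 14 largest by the same rule ran from Mbnl1 (-1.35) to -0.56. Cdk6, a kinase that works with D cyclins in early G1, read 9.99, 10.06 and 10.02 in control cells and 9.21, 9.23 and 9.32 after Mbnl1 siRNA. All 24 of its probe sets were lower, and 58.6% of the control level remained (95% interval 54.5% to 62.9%, adjusted p = 8.90e-05). Cugbp1 siRNA arrays stood at 9.82, 9.89 and 10.01, near the controls, and Cdk6 was 0.65 lower after Mbnl1 siRNA than on them (adjusted p = 1.12e-04). Hmgb2, a chromatin protein abundant in dividing cells, went from 8.30, 8.38 and 8.39 to 7.80, 7.74 and 7.76, with all 12 probe sets lower. Its change was -0.59 (SE 0.04, adjusted p = 2.18e-04), and the difference from Cugbp1 siRNA was -0.71 (adjusted p = 5.67e-05). Sh2b3, an adaptor that dampens cytokine signalling, fell by 0.56 with 18 of 19 probe sets lower, and stood 0.50 below Cugbp1 siRNA (adjusted p = 0.00130). Ptgir, the prostacyclin receptor, fell by 0.56, and was 0.42 below Cugbp1 siRNA (adjusted p = 0.0129).

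Several falls had a counterpart on the Cugbp1 siRNA arrays, of similar size in some genes and smaller in others. The means of Cited4, for example, were 8.66 in control cells, 8.03 after Mbnl1 siRNA and 8.25 after Cugbp1 siRNA. Krt80, a keratin, read 9.40, 9.45 and 9.43 in control cells, 8.66, 8.57 and 8.56 after Mbnl1 siRNA, and 8.60, 8.78 and 8.74 after Cugbp1 siRNA. It fell by 0.83 against control (SE 0.04, adjusted p = 6.44e-05), and its difference between the siRNAs was -0.11 (SE 0.05, adjusted p = 0.259). Cited4, a partner of CBP and p300, Vipr1, a receptor for vasoactive intestinal peptide, Dner, a Notch ligand, Cd164l2, and the transcription factors Sp5 and Tfap2e fell by 0.57 to 0.63. Between the siRNAs these 6 differed by -0.23 to -0.04, and none was called (adjusted p from 0.106 to 0.828). Galnt17, a glycosyltransferase, fell by 0.56, and its -0.22 against Cugbp1 siRNA (adjusted p = 0.0439) lost the call without any of the 5 arrays Cugbp1 siRNA 1 to 3 and Mbnl1 siRNA 2 and 3. Scn4a, the sodium channel of skeletal muscle, read 7.83, 7.11 and 7.45 after Mbnl1 siRNA and 7.95, 8.12 and 8.12 in control cells (-0.60, SE 0.16, adjusted p = 0.0210). Its call was lost without control array 2 (adjusted p = 0.0603), control array 3 (0.0608) or Mbnl1 siRNA array 3 (0.0603), and without the filter on weak signals its change was -0.07. Dner changed by -0.21 without that filter and lost its call (adjusted p = 0.0669).

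**Figure D3:**
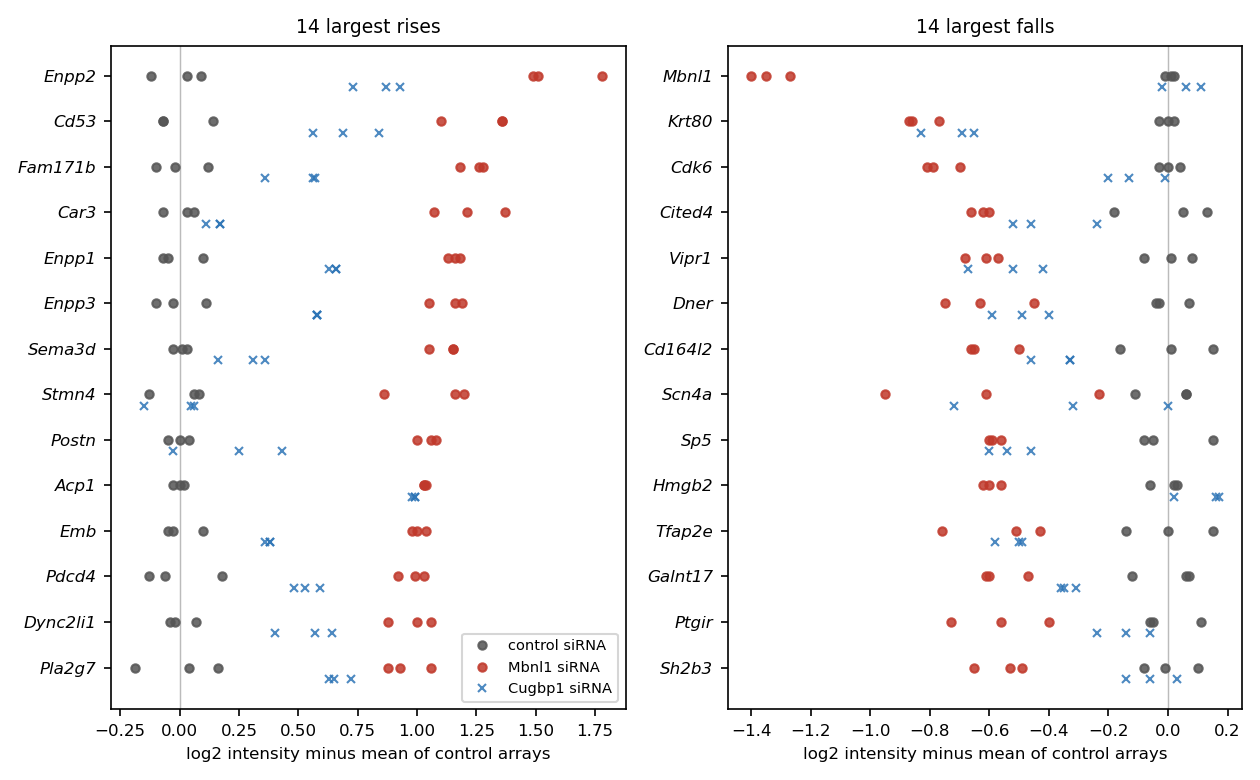
Log2 intensity minus the mean of the control arrays for the 14 largest rises (left) and 14 largest falls (right), with 1 point per array of control siRNA (grey), Mbnl1 siRNA (red) and Cugbp1 siRNA (blue crosses). The Mbnl1 siRNA arrays of Enpp2, Car3, Sema3d and Cdk6 lie apart from both other groups, while those of Acp1 and Krt80 lie near or among the crosses.

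In the comparison of Mbnl1 siRNA with Cugbp1 siRNA, 1192 genes (9.39%) were called, 661 higher (5.2%) and 531 lower (4.18%; limma with Benjamini-Hochberg). The count fell to 708 without Cugbp1 siRNA array 2, and to 648, 626 and 645 without Mbnl1 siRNA arrays 1, 2 and 3. Of the 14 large rises 12 were called higher in it, and of the 14 large falls 6 were called lower. Both comparisons use the same Mbnl1 siRNA arrays, so these counts are not independent of the choice of genes. The mean of the Cugbp1 siRNA arrays lay between those of control and Mbnl1 siRNA for 13 of the rises and 12 of the falls. These genes were chosen for large differences between control and Mbnl1 siRNA, which favours a place between them. The share over all genes was not counted. Counts of lists between the siRNAs, given below as deposited only, are to be read against 5.2% higher and 4.18% lower.

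Genes of the extracellular matrix were among those that rose after Mbnl1 siRNA. The members of this and the following lists were chosen with earlier results of these data known. Their counts and shares are therefore no independent evidence. Of 55 glycoproteins and proteoglycans of the matrix, 28 rose and 7 fell, and their median change was 0.13 against 0.04 for all genes (a range of 0.02 to 0.18 over the 5 scalings, in which 23 to 30 rose and 6 to 15 fell). Aspn, a small proteoglycan, rose by 1.74 and Spon2, a matrix protein, by 1.23. Aspn rests on 3 probe sets, and the control means of both (6.86 and 6.80) lay below the filter's threshold, so that the size of their rise is uncertain. Ogn, osteoglycin, rose from 9.21 ± 0.04 to 10.04 ± 0.18 (SD, n = 3; change 0.82, SE 0.08, adjusted p = 5.80e-04) with all 9 probe sets higher. In the comparison with Cugbp1 siRNA 19 of the 55 were higher and 1 lower (36.4% called, against 9.39% of all genes). Besides Postn these included, chosen after their values were seen, the large proteoglycan Vcan (change 0.79 against control and 0.55 against Cugbp1 siRNA), the microfibril protein Fbn1 (0.65 and 0.57) and the adhesion-modulating protein Tnc (0.59 and 0.69). Fibronectin, Fn1, changed less, by 0.22 and 0.34, with all 57 probe sets higher than in control cells.

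Enzymes that process the matrix are described next. Of 37 crosslinking and processing enzymes, 21 rose and 3 fell (13 to 23 and 2 to 6, median 0.18, from 0.07 to 0.22 over the scalings). Of the 37, 9 were higher and 1 lower than after Cugbp1 siRNA (27% called, against 9.39% of all genes). Plat, the tissue plasminogen activator, rose from 8.36 ± 0.05 to 9.06 ± 0.04 (SD, n = 3) and was 0.75 above Cugbp1 siRNA (adjusted p = 3.07e-05). P3h2 and Plod2, which hydroxylate collagen, rose by 0.64 and 0.51, and the gelatinase Mmp2 by 0.51. The 25 collagens themselves divided: 9 rose and 10 fell (8 to 9 and 8 to 13 over the scalings), with a median of -0.01 (-0.14 to 0.03). Col6a1 and Col12a1 rose by 0.36 each, and Col8a2 fell by 0.40 and Col15a1 by 0.32. Of 34 genes of integrins and focal adhesion, 8 rose and 5 fell (5 to 11 and 4 to 14 over the scalings). Of the 34, 7 were higher than after Cugbp1 siRNA with 0 lower (20.6% called, against 9.39% of all genes). Itgb8, a receptor subunit that activates latent TGF-beta, rose by 0.90 (SE 0.08, adjusted p = 3.11e-04), and Itgb3 rose by 0.44 and was 0.61 above Cugbp1 siRNA (adjusted p = 2.70e-04).

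Growth factor pathways differed among themselves. In the TGF-beta and BMP list 19 of 36 genes rose and 4 fell (13 to 20 and 3 to 12 over the scalings, median 0.19, from 0.07 to 0.22). The ligand Tgfb2 rose by 0.52, the activin receptor Acvr2a by 0.49, the SMAD antagonist Skil by 0.47 and the latent TGF-beta binding protein Ltbp1 by 0.45. Against Cugbp1 siRNA the difference of Acvr2a was 0.01 (adjusted p = 0.966) and that of Ltbp1 0.37 (adjusted p = 0.00684). Of 48 genes of FGF, IGF, HGF and PDGF signalling, 23 rose and 7 fell (16 to 26 and 4 to 11, median 0.16, from 0.05 to 0.20). Hgf, the hepatocyte growth factor, rose from 7.83 ± 0.05 to 8.75 ± 0.07 (SD, n = 3) with 19 of 20 probe sets higher, and was 0.47 above Cugbp1 siRNA (adjusted p = 0.00731). The receptor gene Pdgfra rose by 0.79 with all 11 probe sets higher, and the ERK phosphatase Dusp6 by 0.48. Of 43 Wnt genes 16 rose and 11 fell (6 to 17 and 10 to 20 over the scalings), and of 24 Notch genes 8 rose and 4 fell (5 to 9 and 4 to 7). With arrays centred on the kept probe sets, falls outnumbered rises in both lists (20 against 6 for Wnt and 7 against 5 for Notch). So they did among all genes (4437 against 1707). Hey1, a Notch target, rose by 0.57. The ligand Jag1 rose by 0.42 against control but was 0.38 below Cugbp1 siRNA (adjusted p = 0.0226).

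Of 47 genes of lysophospholipid and G protein signalling, 16 rose and 4 fell (8 to 16 and 3 to 14 over the scalings). Besides the 3 Enpp genes, Rgs2, which limits signalling through G proteins, rose by 1.35 on 4 probe sets and was 1.02 above Cugbp1 siRNA (adjusted p = 7.21e-05). Of 55 axon guidance genes, 20 rose and 14 fell (15 to 21 and 9 to 23). Slit2, a repellent ligand, rose by 0.56, the membrane-bound semaphorin Sema6a by 0.54, and the semaphorin receptor Nrp1 by 0.55. Slit2 was 0.38 above Cugbp1 siRNA (adjusted p = 0.00208) and Nrp1 0.12 (adjusted p = 0.357).

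Regulators of RNA were described by 3 lists. In the MBNL and CELF family of 9, 3 rose and 5 fell (1 to 3 and 4 to 6 over the scalings). Mbnl2, the paralogue of Mbnl1, rose from 10.20 ± 0.06 to 10.41 ± 0.04 (SD, n = 3; change 0.21, SE 0.05, adjusted p = 0.00806). Mbnl3 fell by 0.38 with all 9 probe sets lower (adjusted p = 8.56e-04), and neither paralogue was called between the siRNAs (adjusted p = 0.267 and 0.124). Of 49 other splicing regulators, 26 rose and 3 fell (median 0.13), and 6 to 34 rose and 2 to 6 fell over the scalings. Khdrbs3 rose by 0.57, Tia1 by 0.40 and the kinase of SR proteins Clk4 by 0.36. Of 57 genes of mRNA decay, 23 rose and 0 fell as deposited (9 to 28 and 0 to 13 over the scalings). The exonuclease gene Xrn1 rose by 0.81 with all 33 probe sets higher, and its difference from Cugbp1 siRNA was 0.02 (adjusted p = 0.881). Of the 49 splicing regulators 3 were called between the siRNAs (6.12%), and of the 57 decay genes 5 (8.77%), against 9.39% of all genes.

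Muscle genes were mixed. Of 32 myogenic regulators and fusion genes, 14 rose and 3 fell as deposited, but 7 to 14 rose and 3 to 14 fell over the scalings. Between the siRNAs 2 were called (6.25%, against 9.39% of all genes). The transcription factor Tcf4 rose by 0.50, and Myf5 fell by 0.28 (adjusted p = 0.0307). Among 47 genes of the sarcomere and of differentiation, 11 rose and 9 fell (5 to 13 and 7 to 19). Neb, nebulin, rose by 0.44 with 35 of 38 probe sets higher, and Ankrd1, a stress-responsive muscle protein, fell by 0.42 with all 12 lower. Of 35 genes of calcium handling and excitability 9 rose and 10 fell (6 to 12 and 10 to 17), with Musk, the kinase of the neuromuscular junction, up by 0.44. Of 41 smooth muscle and actin genes 9 rose and 2 fell (4 to 16 and 2 to 16), led by the small GTPase genes Rhob (0.57) and Rnd3 (0.54). In the adipocyte and osteoblast list of 14, 3 rose and 6 fell (2 to 3 and 4 to 9, median -0.14).

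Cell cycle genes were described by 3 lists. Of 25 D cyclins, CDKs and inhibitors 5 rose and 6 fell (3 to 5 and 4 to 10 over the scalings). Of the 25, 4 were lower and 0 higher than after Cugbp1 siRNA (16% called, against 9.39% of all genes). Ccnd1, the D cyclin that activates Cdk6, fell from 11.62 ± 0.02 to 11.29 ± 0.03 (SD, n = 3; adjusted p = 7.75e-04) with all 7 probe sets lower, and was 0.27 below Cugbp1 siRNA (adjusted p = 0.00269). Of 58 replication genes 8 rose and 12 fell (5 to 11 and 5 to 29 over the scalings). The repressor E2f6 fell by 0.45 and was 0.52 below Cugbp1 siRNA (adjusted p = 0.00139), while E2f5 rose by 0.41. Of 48 genes of mitosis and cytokinesis 6 rose and 3 fell (0 to 10 and 0 to 22).

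Stress pathways were described by 3 lists. Of 21 interferon and double-stranded RNA response genes that passed the filter (of 40 listed), 11 rose and 2 fell (3 to 11 and 1 to 3 over the scalings). Tlr3, the endosomal receptor of double-stranded RNA, rose by 0.44 and was 0.25 above Cugbp1 siRNA (adjusted p = 0.00660). Ifit2 rose by 0.60, from a control mean of 6.82 below the filter's threshold, and the chemokine gene Ccl2 fell by 0.38. Of 42 genes of the unfolded protein and integrated stress response 16 rose and 2 fell (9 to 25 and 1 to 6), with the mTOR inhibitor Ddit4 up by 0.46 and the ER stress kinase Eif2ak3 by 0.42. Of 33 p53 targets and apoptosis genes 10 rose and 6 fell (5 to 12 and 5 to 15 over the scalings), with a median of 0.01, below the 0.04 of all genes. Ccng2 (0.58), Gadd45a (0.57) and Sesn1 (0.49) rose and were not called between the siRNAs (adjusted p from 0.131 to 0.325). Btg2, an antiproliferative gene, rose by 0.45 on 4 probe sets and was 0.34 above Cugbp1 siRNA (adjusted p = 0.0245).

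In the list of 26 genes for making and taking up cholesterol, 3 rose and 5 fell against control (median 0.00). This count ran from 1 to 6 rises and 3 to 12 falls over the scalings. With arrays centred on the kept probe sets 1 rose and 12 fell (median -0.12). Of all genes, 1707 rose and 4437 fell with that centring (median -0.07). Against Cugbp1 siRNA 11 genes of the list were lower and 1 was higher (46.2% called, against 9.39% of all genes), with a median difference of -0.15. The list was chosen with earlier results of these data known, so this share is no independent evidence. The transcription factors of the pathway, Srebf1 and Srebf2, were 0.31 and 0.24 lower than after Cugbp1 siRNA (adjusted p = 0.00365 and 0.00435), and 0.26 and 0.19 lower than in control cells. Lanosterol synthase, Lss, chosen after its value was seen, was 0.40 lower than after Cugbp1 siRNA (adjusted p = 4.81e-04) and fell by 0.13 against control. The exporter Abca1 was the gene that went the other way, 0.32 above Cugbp1 siRNA (adjusted p = 0.00965) and 0.57 above control.

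Of housekeeping lists, 37 cytosolic ribosomal protein genes had 11 rises and 0 falls as deposited (1 to 14 and 0 to 10 over the scalings), and 39 proteasome subunits 5 and 2 (1 to 9 and 1 to 15). In 68 respiratory chain genes there were 7 rises and 6 falls (0 to 10 and 2 to 25), and in 29 glycolysis genes 7 and 5 (5 to 8 and 3 to 10). The respiratory genes had 9 lower and 0 higher than after Cugbp1 siRNA (13.2% called, against 9.39% of all genes). The lactate transporter Slc16a1 fell by 0.44, and Pdk4, which restrains pyruvate dehydrogenase, rose by 0.40.

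**Figure D4:**
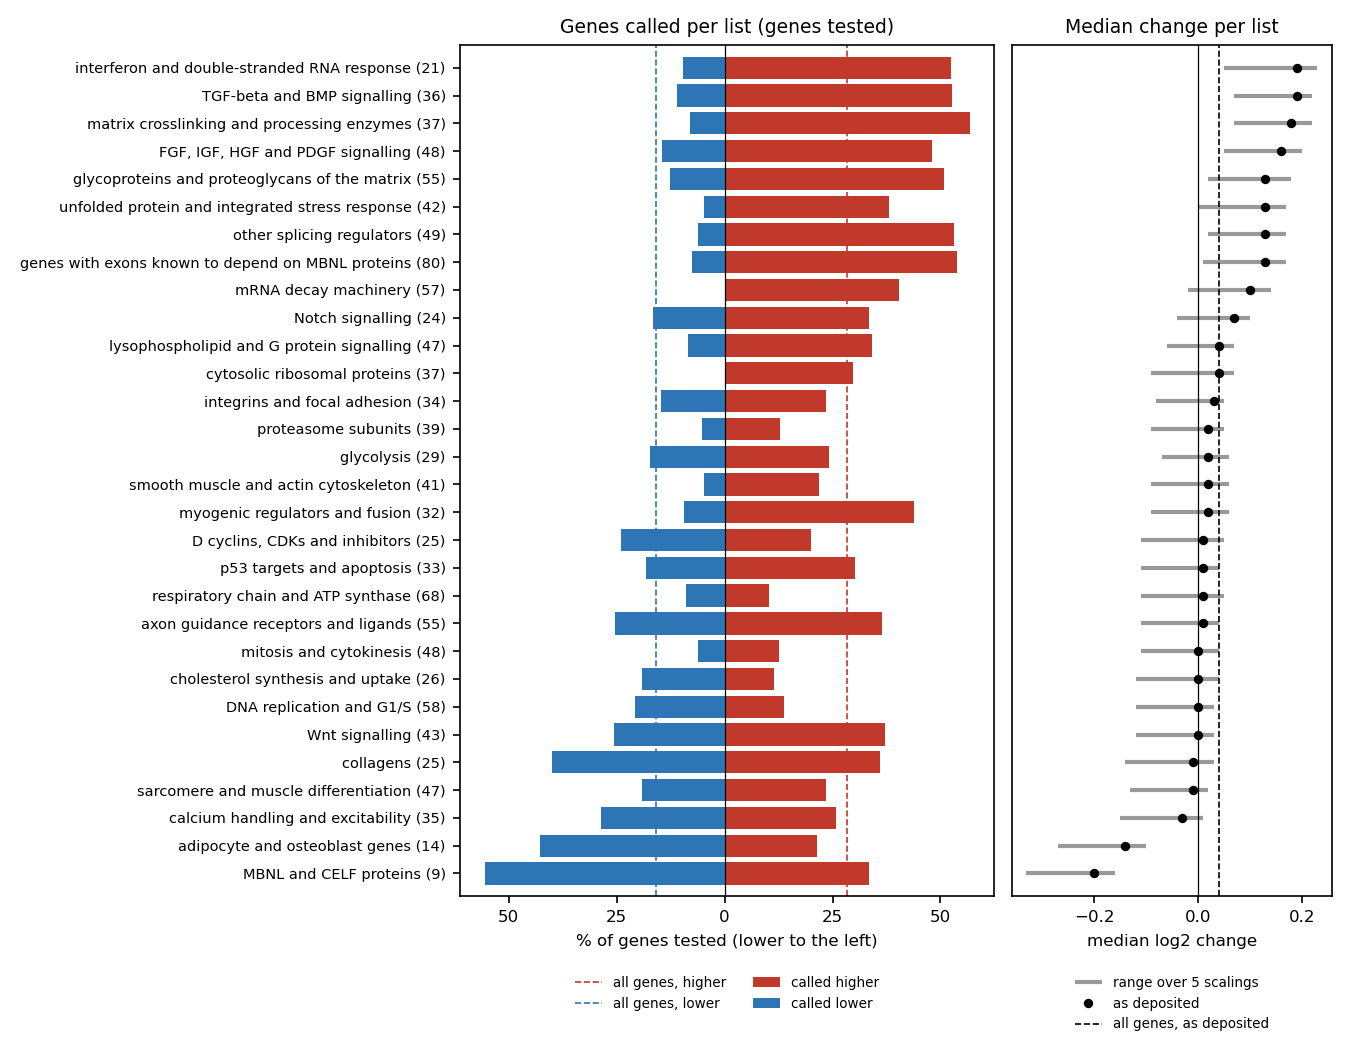
Left, the percentage of the genes tested in each of 30 lists that were called higher (red) or lower (blue) after Mbnl1 siRNA, with the percentages over all genes (28.4 and 15.8) as dashed lines. Right, the median log2 change of each list as deposited (black points) with its range over 5 scalings (grey bars), in which the interferon, TGF-beta, matrix enzyme and growth factor lists stay above 0 and the MBNL and CELF family and the adipocyte and osteoblast list below 0.

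Markers of 7 other cell types were followed beside these groups. In the fibroblast list 4 of 8 markers were tested. Their summed intensity was 5080 to 5457 on the control arrays and 5919 to 6500 on the Mbnl1 siRNA arrays, while their median log2 change was -0.07. Pdgfra (0.79) and Ly6a (0.26) rose, and Thy1 (-0.50) and Pi16 (-0.40) fell. In the haematopoietic list 7 of 10 were tested, and their sum was 1979 to 2019 against 2245 to 2335. Their median change was -0.21, so that the higher sum does not describe most of the list. Cd53 rose by 1.28 and Cd68 by 0.49, Csf1r fell by 0.35, and the defining marker Ptprc stood at 7.45 and 7.27, near the filter's threshold of 7.0, without a call (adjusted p = 0.0557). The endothelial list (3 of 8 tested) summed to 730 to 744 and 609 to 665, with 0 rises and 2 falls. The epithelial list (5 of 8) summed to 1195 to 1272 and 1119 to 1146, the neural list (4 of 8) to 1113 to 1158 and 1143 to 1168, the adipocyte list (3 of 5) to 591 to 692 and 555 to 571, and the osteoblast list (3 of 5) to 1069 to 1103 and 987 to 1034. The part of other cells in the changes of the matrix and growth factor genes was not tested, and with bulk RNA more cells of a type and more RNA per cell cannot be told apart.

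The promoters of the genes that changed most were poorer in CpG than those of all genes. Promoter windows of 300 bases were found for 125 of the 165 genes at least 1.5-fold higher, 27 of the 35 at least 1.5-fold lower and 10131 of 12700 tested. The median G and C content was 56.3%, 58.0% and 61.0%, and the median number of CpG sites 14, 11.5 and 20. TATAAA occurred on either strand in 16.8%, 29.6% and 9.06%, and CCAAT in 50.4%, 48.1% and 42.0%. These shares describe the sequences and were not tested. The genes at least 1.5-fold higher, those at least 1.5-fold lower and all tested had medians of 10, 3 and 10 probe sets. Their median control levels were 7.87, 8.46 and 8.52. The part of these differences in the shares was not tested.

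At the level of single probe sets, the question was whether an exon changed apart from its gene. Each probe set was set against its gene's value on the same array, which gave 158147 probe sets in 11397 genes with at least 4 of them. The relative level of 8646 probe sets (5.47%) was called (limma with a mean-variance trend and Benjamini-Hochberg), 3385 higher and 5261 lower, in 5073 genes (44.5%). The median size was 0.56, and 442 changed at least 2-fold. The count rested on few arrays: it was 3024 without control array 3, and 2250, 1954 and 1386 without Mbnl1 siRNA arrays 1, 2 and 3. Without the filter on weak signals 0 were called, with 53665 of 310095 at an unadjusted p under 0.05, and limma's diffSplice called 18746. Of the 3385 called higher, 707 had a control mean below the filter's threshold. Of the 5261 called lower, 219 had a mean below it after Mbnl1 siRNA. These passed the filter only through the group in which they were brighter, which limits the counts as a measure of exon changes. Among the 149501 not called, 3983 lay below it in control cells and 1762 after Mbnl1 siRNA.

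Against Cugbp1 siRNA only 44 of the same 158147 probe sets were called (0.0278%), 20 higher and 24 lower, in 31 genes. Most of the calls against control were thus without a call between the siRNAs, although a p that misses the threshold does not show that they acted alike. Probe sets called higher against control lay at a median of -0.66 relative to their gene on the control arrays, those called lower at 0.88 and the others at -0.02. Their median control levels were 7.75, 9.45 and 8.82. The control arrays enter both these levels and the changes, and the part of signal level in the calls was not tested.

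The largest relative changes outside strongly changed genes are described first. The 12 largest falls ran from -1.98 (Npnt) to -1.50 (Phf5a). Npnt, nephronectin, is a matrix ligand of integrins. Its probe set lay -0.87, -1.03 and -1.11 from the gene on the control arrays, -3.25, -3.20 and -2.50 on the Mbnl1 siRNA arrays, and -1.35, -1.24 and -1.23 on the Cugbp1 siRNA arrays. The relative change was -1.98 (SE 0.20, adjusted p = 0.00398) while the gene changed by 0.10, and the difference from Cugbp1 siRNA was -1.71 (adjusted p = 0.0114). In the other 11, which included Dbn1, an actin-binding protein of dendritic spines (-1.81), the ciliary protein gene Cspp1 (-1.80), the transcription factors Runx3 (-1.80) and Yy1 (-1.59), and the poly(C)-binding protein gene Pcbp2 (-1.56), the siRNAs differed by -0.53 to 0.31 and none was called between them. Of the 12, 11 kept their call without each of the 6 arrays in turn, and Phf5a did not.

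Among the 12 largest relative rises of probe sets at or above the filter's threshold in both groups, the first was in Dnm2, the GTPase that pinches off endocytic vesicles. Its probe set lay -0.98, -1.49 and -1.43 from the gene in control cells, 0.06, -0.03 and 0.25 after Mbnl1 siRNA, and -1.13, -0.99 and -0.99 after Cugbp1 siRNA. The change was 1.39 (SE 0.15, adjusted p = 0.00433) against control and 1.13 against Cugbp1 siRNA (adjusted p = 0.0351). Further Dnm2 probe sets were called lower against control only (-0.67 and -0.47). A probe set of Tpm1, tropomyosin 1, rose by 1.30 (SE 0.19, adjusted p = 0.0101) and differed from Cugbp1 siRNA by 0.97 without a call (adjusted p = 0.394). One of Ctsh, a lysosomal protease, rose by 1.23 with tight replicates: 0.72, 0.70 and 0.61 against -0.52, -0.50 and -0.63. On the Cugbp1 siRNA arrays this probe set lay at 0.13, 0.50 and 0.24. Its difference of 0.39 between the siRNAs was not called (adjusted p = 0.477). The remaining 9 were in Pcm1, Dab2, Map4k1, Atad2, Ppp2r5c, Dlg1, Ssh3, 1700088E04Rik and Stx3 (1.17 to 1.34), with no call between the siRNAs. Without each of the 6 arrays in turn, 5 of the 12 kept their call, those in Dnm2, Ctsh, Dlg1, Ssh3 and Stx3.

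Genes with exons known to depend on MBNL proteins formed a list of 84, of which 80 were tested. Some of its members were added with earlier results of these arrays known, so its counts are no independent evidence. At the gene level 43 rose and 6 fell (18 to 49 and 5 to 18 over the scalings, median 0.13, from 0.01 to 0.17 over the scalings). At the probe set level 150 of 2261 (6.63%) were called, those of Mbnl1 itself included, against 5.47% of all probe sets tested. They lay in 51 of 79 genes (64.6%, against 44.5% of all genes), but the genes of the list held more tested probe sets each than genes at large, so these shares of genes are not comparable. Against Cugbp1 siRNA 17 probe sets in 10 genes of the list were called, 7 of them in Mbnl1.

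Each of these genes is described by its relative level. Wnk1, a kinase that regulates ion transport, had a pair of probe sets called in both comparisons. The first lay at -2.17, -2.20 and -2.19 in control cells, -1.18, -1.31 and -1.25 after Mbnl1 siRNA and -2.25, -2.44 and -2.29 after Cugbp1 siRNA (0.94 against control and 1.08 against Cugbp1 siRNA, adjusted p = 0.00587 and 0.0114). The second rose by 0.91 and was 0.94 above Cugbp1 siRNA (adjusted p = 0.0316). Ldb3, a protein of the Z-disc, had a probe set at 0.56, 0.38 and 0.58 in control cells and at 1.31, 1.26 and 1.32 after Mbnl1 siRNA (0.79 against control and 0.68 against Cugbp1 siRNA, adjusted p = 0.00346 and 0.0114). The probe sets called in both comparisons rose by 0.71 in Mpdz, a scaffold with many PDZ domains (0.82 above Cugbp1 siRNA), and by 0.59 in the receptor gene Fgfr1 (0.69 above). Wnk1, Ldb3 and Mpdz had further probe sets called higher, and Fgfr1 one called lower, against control only. In the probe sets called in both comparisons the Cugbp1 siRNA arrays lay near the controls and the Mbnl1 siRNA arrays stood apart.

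Probe sets of 3 further genes of the list moved down. That of Ndrg4 lay between -2.36 and -1.90 in control cells, -3.18, -3.51 and -3.46 after Mbnl1 siRNA and -1.98, -2.09 and -2.05 after Cugbp1 siRNA (-1.29 and -1.34, adjusted p = 0.00653 and 0.0154). That of Slain2, which binds growing microtubule ends, fell by 0.53 and was 0.70 below Cugbp1 siRNA (adjusted p = 0.0399). Myl6, a myosin light chain, had a probe set that moved in opposite directions after the siRNAs: -0.99, -1.01 and -0.99 in control cells, -1.52, -1.66 and -1.63 after Mbnl1 siRNA and -0.37, -0.46 and -0.49 after Cugbp1 siRNA. Its difference between the siRNAs was -1.17 (adjusted p = 0.00274). Probe sets of the integrin gene Itga6 (-1.13 and -0.93), the dystrobrevin gene Dtna (-0.98) and the myotubularin gene Mtm1 (1.04) were called against control, and differed from Cugbp1 siRNA by -0.29, -0.54, -0.41 and 0.53 without a call (adjusted p from 0.161 to 0.761). The control mean of that Mtm1 probe set was 6.64, below the filter's threshold. Other Mtm1 probe sets were called higher, also from below it (0.88, 0.84 and 0.72), and brighter ones lower (-0.70 and -0.44).

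Outside the list, genes with a probe set called between the siRNAs are named after their values were seen. In Nasp, a histone chaperone, a probe set rose from a mean log2 intensity of 6.30, below the filter's threshold, to 8.14, and its relative level was 1.57 above control and 1.31 above Cugbp1 siRNA (adjusted p = 0.00470 and 0.0355). In Col6a3, a chain of collagen VI, a bright probe set lay at 1.53, 1.63 and 1.74 in control cells, 0.77, 0.70 and 0.71 after Mbnl1 siRNA and 2.19, 1.83 and 1.78 after Cugbp1 siRNA (-0.91 against control and -1.21 against Cugbp1 siRNA, adjusted p = 0.00209 and 0.00233). A second Col6a3 probe set was 0.75 below control and 1.26 below Cugbp1 siRNA. In Stmn4, whose gene value rose by 1.07, a probe set went from 7.65 to 7.20 and did not share the rise. Synj2, a phosphoinositide phosphatase, had a probe set 0.76 above control and 0.82 above Cugbp1 siRNA (adjusted p = 0.00642 and 0.0351), and Ric1 had one 1.04 below control and 0.93 below Cugbp1 siRNA (adjusted p = 0.00681 and 0.0382).

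Few of the 44 held under other settings. Of the 10 alternatives run, 11 probe sets in 8 genes kept the call in all except the one with no filter, which left 0 of the 44. They were 4 in Mbnl1 and 1 each in Celf1, Cmah, Col6a3, Erlin2, Mia2, Myl6 and Stmn4. The number called was 13 to 19 without any 1 of the 6 siRNA arrays, and 18 without the control arrays in the fit. The probe sets of Dnm2 (2 of 10), Npnt (3), Ldb3 (4), Ndrg4 (4), Mpdz (3), Wnk1 (1 each), Fgfr1 (1), Slain2 (1), Nasp (2), Synj2 (1) and Ric1 (1) kept it in fewer.

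**Figure D5:**
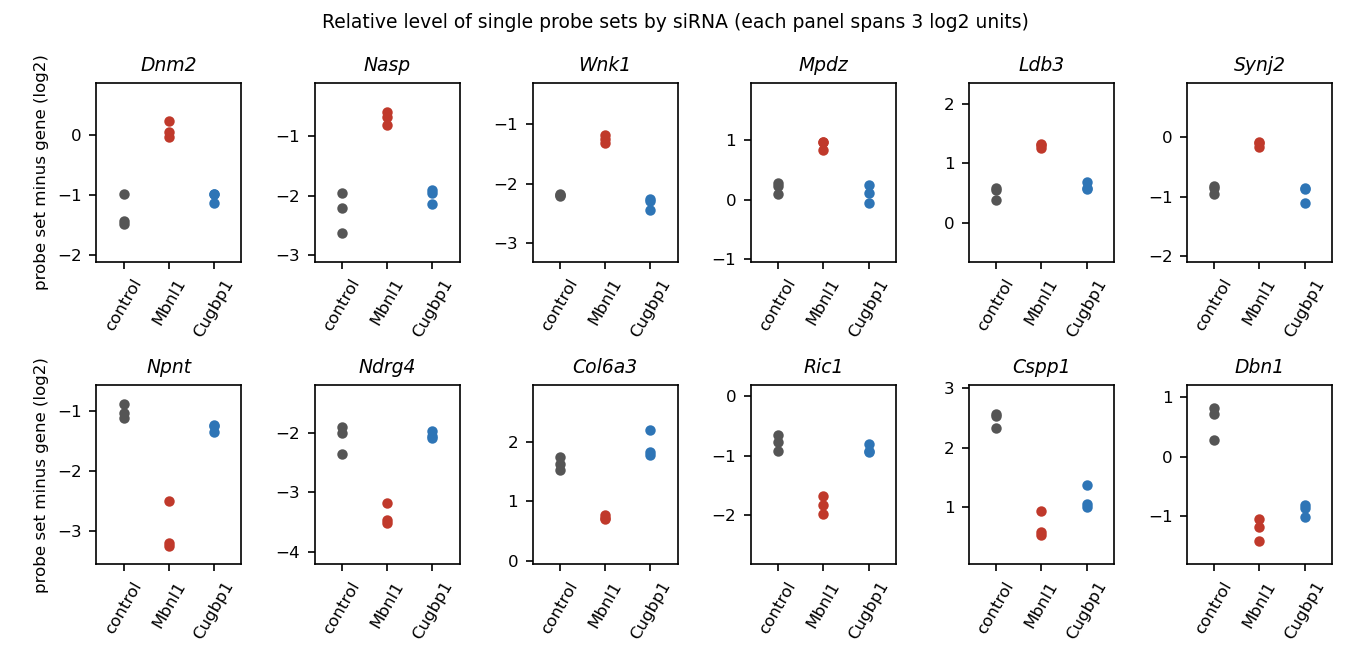
Relative level (probe set minus gene, log2) of 12 single probe sets on each of 3 arrays of control (grey), Mbnl1 (red) and Cugbp1 siRNA (blue), each panel spanning 3 log2 units. In the panels from Dnm2 to Synj2 and from Npnt to Ric1 the Mbnl1 siRNA arrays stand apart from both other groups, while in Cspp1 and Dbn1, which were not called between the siRNAs, the Cugbp1 siRNA arrays moved from the controls as well.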

How the data were processed

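Total RNA of C2C12 cells was measured on exon arrays, 3 per group. The authors deposited a linear intensity for each probe set and array; RMA, Affymetrix Expression Console and mm9 are named in the submitters' processing notes, without versions (not given in the sources used here). Intensities were taken to log2. Probe sets were named through the platform's annotation, and those with several symbols (6571) or none (871987) were left out. Probe sets with a mean log2 intensity over the 6 arrays at or above the 75th percentile were kept. Gene values came from a median polish over at least 3 kept probe sets, run on all 9 arrays together. Fits that left out arrays used these same gene values. Mbnl1 siRNA was compared with control siRNA in limma 3.58.1 (R 4.3.3) on 6 arrays, and with Cugbp1 siRNA on all 9, with Benjamini-Hochberg adjustment over all genes and a threshold of 0.05. At the exon level, each probe set minus its gene value was fitted with a mean-variance trend in genes with at least 4 probe sets. Scripts were tested on simulated data.

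Named genes are the 14 largest called changes in each direction (at least 5 probe sets, groups that do not overlap, both group means at or above the filter), up to 4 per gene list, and the 12 largest relative changes in each direction (genes with at least 5 probe sets changed by less than 0.58, the probe set at or above the filter in both groups), and called probe sets of the list of MBNL-dependent exons. Members and lists were chosen with earlier results of these data known. The number of arrays limits the precision. Other filters, scalings, summaries, fits and sets of arrays were tried.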

Additional observations from a re-analysis of the deposited data

Results flagged for a closer look

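Probe sets without a gene symbol were outside all comparisons above. Of 127744 such probe sets above the filter, 8695 were called higher and 12045 lower after Mbnl1 siRNA (limma with Benjamini-Hochberg), with a median change of -0.07. At least 2-fold, 791 were higher and 553 lower. They are noted because the gene comparisons do not use them. These counts are as deposited only, and no such share was computed for single probe sets with a gene symbol. Whether they exceed those of named probe sets was therefore not tested.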

How the results depend on the processing

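The number of genes called against control ran from 4517 to 6940 over the filters, scalings, summaries and fits tried (5618 as reported) and from 4082 to 5121 without each array in turn. Changes of at least 1.5-fold numbered 147 to 265, and 190 to 239 without each array. The fall of Mbnl1 ran from -1.07 with the mean of the probe sets to -1.43, and from -1.32 to -1.38 without each array. At the exon level against control, diffSplice called 18746 probe sets, the fit with no filter called 0, and leaving out 1 array gave 1386 to 8974. Against Cugbp1 siRNA, 639 genes were called without the filter and 626 to 1138 without each array. Of probe sets against Cugbp1 siRNA, 18 were called with the 6 siRNA arrays only, 0 of 310095 without the filter (18889 at an unadjusted p under 0.05), and 13 to 19 without each siRNA array. Rspo2, a secreted Wnt agonist that fell by 0.92 in the reported fit, changed by 0.03 without the filter (adjusted p = 0.701). The causes of these shifts were not tested.

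The same replicate number did not pair the arrays: the deviations of control and Mbnl1 siRNA arrays of one number correlated at -0.02, 0.08 and 0.04. With the replicate block, 5336 genes and 8618 probe sets were called against control, and 879 genes and 21 probe sets against Cugbp1 siRNA. For named genes against control, 2272 of 2386 values under an alternative kept their direction and side of the threshold, 113 lost the call and 1 reversed. For named probe sets 1846 of 2702 did, and 854 lost the call. Against Cugbp1 siRNA, 271 of 280 gene values and 165 of 440 probe set values did. Probe sets near the filter's threshold lie close to background, which limits the size of change they can show.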
